A study of Mus musculus with 80 samples.

Results

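In mouse embryonic stem (ES) cells 6 loci, 2900060B14Rik, B130034C11Rik, Mir466p, St18, Sntg1 and Rgs20, were picked from earlier results of these data because their chromatin-associated RNA changed strongly when the ZCCHC8 protein was removed. They are 6 of the 22556 genes listed in each of 6 expression tables. The changes with ZCCHC8 loss are therefore given as a description with no test, and the same loci were then followed through loss of ZFC3H1, METTL3 and YTHDC1, each with and without induction of Xist RNA.

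ZCCHC8 is the scaffold of the nuclear exosome targeting (NEXT) complex, which also holds the RNA-binding protein RBM7 and the helicase MTR4. NEXT hands short-lived nuclear RNA without a poly(A) tail to the RNA exosome, and its best known substrates are transcripts that run upstream and antisense from promoters, enhancer RNAs and the extended 3′ ends of small nuclear RNAs. ZFC3H1 is the core of PAXT, a parallel adaptor that acts on polyadenylated nuclear RNA. METTL3 is the catalytic subunit of the complex that writes N6-methyladenosine, and YTHDC1 is the nuclear protein that reads this mark.

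The cells came from a cross of Mus castaneus (Cast) and 129S mice and carried a TetOn promoter at Xist, so that doxycycline (Dox) for 24 h induced Xist RNA from a single X chromosome. This was the Cast X in the METTL3, ZFC3H1 and transgene lines, and the 129S X, with a Bgl tag in Xist, in the YTHDC1 and ZCCHC8 lines. In every degron clone the protein of interest was fused to FKBP12F36V, which dTAG-13 sends to degradation, and the 4 treatments were untreated, dTAG for 26 h, Dox for 24 h, and dTAG for 2 h followed by dTAG with Dox for 24 h. The dTAG-only time is that of the sample titles, since the treatment field gives 2 h. There were 2 ZCCHC8 clones (Z4F and Z12H), 2 ZFC3H1 clones (8H and 11A), 4 METTL3 clones (G4 and H1 with an N-terminal tag, C3 and H5 with a C-terminal tag), and 2 YTHDC1 clones (Y9F and Y12H) that were each sequenced in 2 experiments. For the 4 transgene lines, GFP-METTL3 was placed at Rosa26 of the METTL3 degron clone H5, either wild type (WT) or the catalytic mutant D395A. Each was 1 clone in 2 experiments, with both X chromosomes (XX: WT_P2B3 and D395A_1F) or labelled XiO (WT_1A and D395A_9F). The study's list of lines defines XiO as the inactive X alone, without a detected active X. Its methods state that several such clones had lost the 129S X. All cells were grown on feeder fibroblasts.

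The 80 libraries held 8.58 to 34.4 M reads, with a median of 22.5 M, and levels are given as CPM, reads divided by the library total in M reads. Of 8 ES cell markers, 7 were detected in every line, with a summed level of 617 to 2104 CPM that was lowest in the WT XiO line, and only Sox2 was at 0. The 8 fibroblast markers, a sign of feeder RNA, summed to 3.38 to 5.86 CPM in the ZCCHC8 libraries and to 9.28 to 14.5 CPM in the WT XiO line, where they were highest. The RNA of the tagged genes does not report on the degron, which acts on protein: Zcchc8 was at 46.8 to 68.9 CPM over the 8 ZCCHC8 libraries. The replicates are clones of a line or repeat experiments of a clone, so the spread between them is not that between separately derived animals.

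The loci fall into 3 groups by position. 2900060B14Rik and B130034C11Rik are long noncoding RNA (lncRNA) genes by RefSeq. 2900060B14Rik is listed on the minus strand at chr1:118458668-118459265 (GRCm38), 598 bp that lie wholly inside Clasp1, a plus-strand gene for a microtubule-binding protein, and that overlap 0 of its exons. The GENCODE annotation places a small nuclear RNA (snRNA) gene, Gm22710, at chr1:118459141-118459265 on the same strand, so that the first 125 bp of the listed gene are the snRNA and 472 bp of the RefSeq gene lie beyond it, so that reads past the snRNA end are counted to 2900060B14Rik. The table's starts for 2900060B14Rik, B130034C11Rik, St18 and Sntg1 lie 1 base before those of RefSeq. As background, the human CLASP1 gene is host to the snRNA gene of U4atac, a part of the minor spliceosome.

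B130034C11Rik is listed at chr16:87496072-87504038 on the plus strand, 203 bases from the start of Cct8, a chaperonin subunit gene read in the opposite direction. It thus leaves a coding gene's promoter divergently. Promoter windows of RefSeq (250 bases before to 50 after the start, GRCm38.p6) existed for both lncRNA genes and are shown because both lie in DNA rich in CG pairs. In the 2900060B14Rik window (chr1:118459216-118459515, minus strand) the capitals mark ATGCAAAT, the octamer letters known from snRNA promoters, which were searched after the other motifs. In the B130034C11Rik window (chr16:87495823-87496122, plus strand) they mark each CG. The third sequence is the snRNA gene itself, whose first 50 bases are the last 50 of the first window.
2900060B14Rik window: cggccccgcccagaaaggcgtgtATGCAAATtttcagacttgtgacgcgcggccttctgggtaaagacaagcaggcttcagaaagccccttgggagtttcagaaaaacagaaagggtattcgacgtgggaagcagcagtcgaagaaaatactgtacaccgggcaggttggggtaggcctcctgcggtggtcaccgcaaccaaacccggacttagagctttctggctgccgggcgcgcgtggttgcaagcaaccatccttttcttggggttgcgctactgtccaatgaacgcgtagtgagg
B130034C11Rik window: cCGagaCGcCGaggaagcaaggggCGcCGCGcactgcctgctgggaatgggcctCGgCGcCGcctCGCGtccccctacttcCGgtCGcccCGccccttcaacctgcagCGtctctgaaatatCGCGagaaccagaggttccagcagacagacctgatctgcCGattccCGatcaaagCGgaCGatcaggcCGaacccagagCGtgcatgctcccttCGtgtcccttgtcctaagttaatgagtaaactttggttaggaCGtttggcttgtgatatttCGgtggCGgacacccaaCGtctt
Gm22710 gene: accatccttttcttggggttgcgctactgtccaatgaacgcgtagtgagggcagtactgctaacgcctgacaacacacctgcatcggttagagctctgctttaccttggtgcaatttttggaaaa

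The 2900060B14Rik window held 20 CG pairs at a GC content of 56%, and the B130034C11Rik window 28 at 60%. The median of all 32851 windows was 7 CG pairs at 52.7%, and 73.5% and 85.8% of windows held fewer than these 2. ATGCAAAT occurred once in the 2900060B14Rik window, on the gene's own strand with its first base at position -227 from the start, and 1.74% of all windows hold it on either strand. Neither window held the TATA box letters TATAAA on either strand, found in 13.6% of windows. The poly(A) signal letters AATAAA were likewise in neither, against 19.6% of windows. The same held for GGTAAG, the letters of a 5′ splice site, against 9.67%. No window was given for the other members.

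Mir466p is a microRNA gene by name, but the table does not count it at its RefSeq place. RefSeq lists an 89 bp gene at chr2:10506006-10506094, whereas the table lists a minus-strand span of 424164 bp at chr18:65195452-65619615. That span lies opposite parts of Nedd4l, Malt1 and Zfp532, which cover 25.8% of it on the other strand, and it contains the same-strand gene Alpk2, which takes up 30.3% of it and has 0 reads in all 80 libraries. The values under this name are therefore minus-strand reads from a wide region of chromosome 18 and not those of a microRNA. Of the 58 microRNA genes in the table, all were counted over more than 1 kb, 41 over more than 100 kb, and 55 were listed on another chromosome than in RefSeq.

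St18, Sntg1 and Rgs20 are coding genes in the first 10 Mb of chromosome 1. St18, a zinc-finger transcription factor gene of the MYT1 family expressed in neurons, is listed at chr1:6487230-6860940 on the plus strand, a span of 373711 bp. Sntg1, which encodes gamma-1-syntrophin, a neuronal adaptor of the dystrophin complex, spans 940140 bp at chr1:8359738-9299877 on the minus strand. Rgs20, which encodes a regulator of G protein signalling, is listed at chr1:4909575-5018734 on the minus strand, and its counted length of 160711 bp exceeds that listed span, as for 794 genes in all. Reads were counted over whole transcript spans, so intronic RNA is the bulk of what these long loci can yield.

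2900060B14Rik went from near background to a strong signal when ZCCHC8 was removed. It was at 0.334 CPM in untreated Z4F and 0.604 CPM in untreated Z12H, and at 21.2 and 24.0 CPM with dTAG. It was at 0.746 and 0.882 CPM with Dox and at 32.0 and 56.9 CPM with dTAG and Dox. All 4 libraries with dTAG lay far above all 4 without it, by 39.7 to 64.5 times in CPM within a clone. In reads, the control libraries held 7 to 20 and the dTAG libraries 319 to 841. The log2 change on the log2(CPM + 1) scale, which is used throughout and understates the change of low genes, was 4.59 (SE 0.163) with Dox and 4.01 (SE 0.163) without.

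B130034C11Rik rose from the low single digits. It was at 1.77 and 2.21 CPM in untreated Z4F and Z12H, and at 18.8 and 18.2 CPM with dTAG. With Dox it was at 1.87 and 0.931 CPM, against 15.3 and 18.5 CPM with dTAG and Dox. The groups did not overlap, and the ratios within a clone ran from 8.22 to 19.8, the highest in Z12H with Dox, whose control library was the lowest of the 4. The log2 changes were 2.92 (SE 0.216) and 2.71 (SE 0.216) with and without Dox.

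Mir466p reads, from the wide region of chromosome 18, were higher by a similar factor in both clones. The untreated libraries were at 8.40 and 9.50 CPM, and the dTAG libraries at 101 and 113 CPM. With Dox the values were 6.61 and 7.89 CPM, and with dTAG and Dox 69.2 and 79.0 CPM. The 4 ratios lay between 10.0 and 12.02, with log2 changes of 3.19 (SE 0.112) and 3.44 (SE 0.112).

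The 3 coding genes changed much less than the noncoding loci. St18 was at 15.7 and 15.6 CPM untreated, 34.4 and 27.6 with dTAG, 15.4 and 15.1 with Dox, and 34.1 and 34.5 with dTAG and Dox. Sntg1 was at 8.55 and 10.1 CPM untreated, 23.3 and 22.4 with dTAG, 7.95 and 11.6 with Dox, and 19.5 and 26.8 with dTAG and Dox. Rgs20 was at 18.1 and 18.4 CPM untreated, 30.0 and 32.5 with dTAG, 20.4 and 21.8 with Dox, and 33.4 and 39.6 with dTAG and Dox. For each of the 3 genes the dTAG libraries lay above all control libraries, with ratios of 1.77 to 2.28 for St18, 2.22 to 2.73 for Sntg1 and 1.64 to 1.82 for Rgs20. The log2 changes with and without Dox were 1.12 and 0.94 (SE 0.0937) for St18, 1.17 and 1.21 (SE 0.134) for Sntg1, and 0.76 and 0.74 (SE 0.0826) for Rgs20. Markers of primitive endoderm, a cell type that ES cells can turn into, were in sum also higher with dTAG, with a slight overlap of the groups without Dox. The summed level of the 6 was 25.7 to 34.7 CPM untreated and 34.5 to 42.1 with dTAG, and 33.5 to 41.7 with Dox and 46.6 to 56.3 with both, with none at 0. Only 3 of the 6 passed the filter. Their log2 changes ran from -0.001 to 0.45 with Dox (median 0.31) and from 0.26 to 0.33 without (median 0.29). The 8 neural markers, of which Sox1 was at 0 throughout, were lower with dTAG only as a sum. It went from 127 to 134 CPM untreated to 109 to 125 with dTAG, and from 125 CPM in both libraries with Dox to 106 to 121 with both. The 4 neural markers tested moved in both directions. Their log2 changes ran from -0.31 to 0.51 with Dox (median 0.22) and from -0.31 to 0.55 without (median 0.15). The part of other cell types in the changes was not tested, and in such bulk samples more cells of a type and more RNA per cell cannot be told apart.

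**Figure D1:**
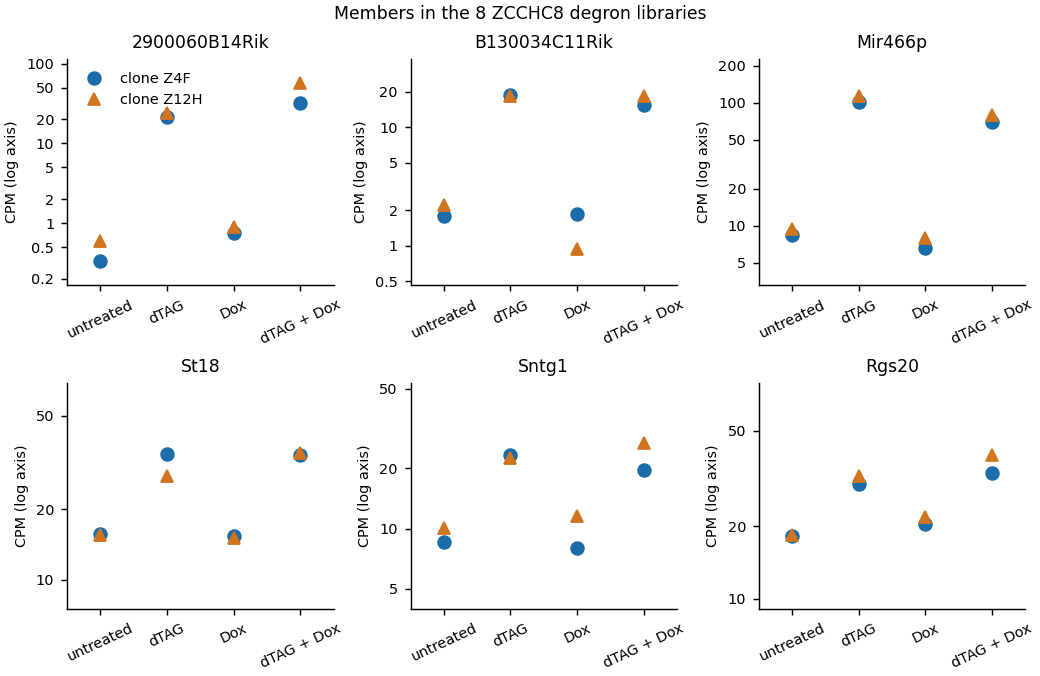
Level of each locus in the 8 ZCCHC8 libraries in CPM on log axes, 1 point per library, by treatment and clone. For every locus both dTAG groups sit above both groups without dTAG, from 1.64 times for Rgs20 to 64.5 times for 2900060B14Rik.

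All 6 loci were called higher in both ZCCHC8 comparisons, where 40.4% of 13857 genes were called with Dox (25.2% higher) and 36.1% without Dox (19.9% higher). Since the loci were chosen on these values, nothing is read from that count. Ranked by log2 change among the 13857 genes, 2900060B14Rik, Mir466p and B130034C11Rik were at places 1, 2 and 5 in both comparisons. Sntg1, St18 and Rgs20 were at places 317, 367 and 948 with Dox and 242, 475 and 801 without. The name of a strongest responder thus fits the noncoding loci, and each coding member had many genes above it.

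Compared per kb of counted length, the coding members and Mir466p were among the least covered genes of the table. In untreated ZCCHC8 clones the mean level was 0.00992 CPM per kb for Sntg1, 0.0211 for Mir466p, 0.0418 for St18 and 0.114 for Rgs20. Of the genes tested, 1.24%, 3.11%, 6.16% and 14.3% lay lower. The length of Mir466p includes the 30.3% of its span shared with same-strand Alpk2. Whether reads from that stretch were counted to Mir466p was not tested, and its value per kb is too low if they were not. B130034C11Rik was at 0.250 CPM per kb and 2900060B14Rik at 0.785, with 24.2% and 46.7% of genes lower. With dTAG and Dox 2900060B14Rik reached 74.3 CPM per kb, above 99.7% of genes, whereas Sntg1 at 0.0247 CPM per kb stayed above only 2.32%.

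Dox alone was also compared with no treatment in the ZCCHC8 clones. Of the 6, 2900060B14Rik passed the filter of a mean of 1 CPM only through the dTAG libraries and had 7 to 20 reads in the libraries compared. Against untreated cells limma called 0 of the 6, where 10.9% of genes were called (edgeR and DESeq2 also called 0). For so few loci this count is near the share of all genes and is not read as a result about them. B130034C11Rik averaged 1.99 CPM untreated and 1.40 CPM with Dox, and 2900060B14Rik 0.469 and 0.814 CPM. Rgs20 (log2 change 0.20) and Mir466p (-0.27) had an unadjusted p under 0.05. The difference between the dTAG effects with and without Dox was 0.58 for 2900060B14Rik and at most 0.25 in size for the others, given without a test.

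Loss of ZFC3H1, the PAXT subunit, raised St18 and left the noncoding loci far below their level without ZCCHC8. St18 was at 27.6 and 12.7 CPM in untreated clones 8H and 11A and at 48.02 and 17.9 CPM with dTAG. With Dox it was at 27.1 and 11.1 CPM, and with dTAG and Dox at 52.6 and 25.4 CPM. The clones overlapped across treatments, because 8H was higher throughout, but within each clone dTAG was higher both times. The log2 change was 1.03 with Dox (SE 0.118, limma adjusted p 0.00228) and 0.62 without (SE 0.118, adjusted p 0.0264). With Dox this was close to the 1.12 in the ZCCHC8 clones, a difference between lines that was not tested. Without the clone term in the fit both calls were lost.

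St18 was the only locus of 5 tested that was called in ZFC3H1 cells, 1 with Dox and 1 without, where 3.15% and 2.15% of 13544 genes were called. B130034C11Rik pointed the same way. It was at 3.75 and 1.40 CPM in untreated 8H and 11A, at 5.74 and 4.04 with dTAG, at 3.59 and 1.65 with Dox and at 5.75 and 3.62 with dTAG and Dox. The log2 changes of 0.68 (SE 0.180) and 0.79 (SE 0.180) did not pass, at limma adjusted p 0.0744 and 0.0533, and the second was 0.04997 and called after median-ratio scaling. Mir466p was higher with dTAG in both clones, by 0.35 and 0.28 on the log2 scale (adjusted p 0.378 and 0.530), against 3.19 and 3.44 in ZCCHC8 cells. Sntg1 changed by -0.02 and -0.20 and Rgs20 by 0.30 and 0.19, none called. 2900060B14Rik stayed at 0.492 to 2.10 CPM in the 8 libraries and was under the filter of a mean of 1 CPM there. With a filter of 0.1 CPM its change was 0.36 and 0.08 (adjusted p 0.429 and 0.897).

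YTHDC1 loss gave smaller changes, again mainly at St18. In the first experiment St18 was at 16.6 and 16.8 CPM in untreated Y9F and Y12H and at 25.1 and 22.5 CPM with dTAG, and at 16.6 and 15.1 CPM with Dox and 22.2 and 19.3 CPM with dTAG and Dox. The dTAG groups lay above the controls without overlap. The log2 changes were 0.36 with Dox (SE 0.0937, limma adjusted p 0.0149) and 0.49 without (SE 0.0937, adjusted p 0.00185). In the second experiment it was at 15.7 and 10.7 CPM untreated and 20.8 and 14.2 CPM with dTAG, and at 14.6 and 8.91 CPM with Dox and 18.3 and 14 CPM with both. There the clones differed more than the treatments, and within a clone dTAG was higher by 0.45 (SE 0.106, adjusted p 0.00660) and 0.38 (SE 0.106, adjusted p 0.0160). With the clone term left out both calls of the second experiment and the call with Dox of the first were lost. With only 1 clone kept for YTHDC1 in the first experiment, the call with Dox was lost whichever clone was left out, and that without Dox was lost without Y9F (0.40, adjusted p 0.175).

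Rgs20 went the other way in YTHDC1 cells with Dox. In the second experiment it was at 19.2 and 19.6 CPM in Y9F and Y12H with Dox and at 12.9 and 15.4 CPM with dTAG and Dox, a log2 change of -0.43 (SE 0.102, limma adjusted p 0.00661) that was not called without the clone term (adjusted p 0.350). The 4 values do not overlap between the groups. In the first experiment the same comparison gave 19.5 and 20.2 against 17.6 and 17.9 CPM, a change of -0.15 (SE 0.0826, adjusted p 0.232) that was not called. Without Dox the changes were -0.13 and 0.14 in the second and the first experiment, and the difference of the dTAG effect between Dox states was -0.31 and -0.29 (adjusted p 0.999 each). Dox alone raised Rgs20 in the first experiment by 0.41 (limma adjusted p 0.0031, 12.6% of all genes called), and by 0.27 in the second (adjusted p 0.105, 10.0% called).

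In all, YTHDC1 loss was called at 1 of 6 loci with and without Dox in the first experiment, where 15.5% and 19.0% of genes were called. In the second it was called at 2 of 5 and 1 of 5, where 14.7% and 17.8% were called. Each of these counts rests on St18, with Rgs20 as the other locus in the count of 2. The counts of 1 are near the shares of all genes. For so few loci none of the counts is read as a result about them. Sntg1, higher in both clones in 3 of the 4 comparisons, changed by 0.16 and 0.18 in the first experiment and by -0.02 and 0.14 in the second, none called. The noncoding loci showed no call: Mir466p changed by 0.01 and -0.07 in the first experiment and by -0.02 and 0.24 in the second, and B130034C11Rik by -0.08, -0.07, -0.16 and -0.31. 2900060B14Rik changed by -0.24 and -0.02 in the first experiment, which it entered only because the ZCCHC8 libraries with dTAG in the same table lifted its mean over 1 CPM. In the YTHDC1 libraries of both experiments it was at 0.0751 to 0.969 CPM, or 2 to 23 reads.

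METTL3 loss was followed over 4 clones. Mir466p was at 8.20, 6.92, 7.84 and 14.2 CPM with Dox in G4, H1, C3 and H5, and at 14.6, 13.6, 16.4 and 24.6 CPM with dTAG and Dox. It was higher in 4 of 4 clones, although the highest control, in H5, lay within the range of the dTAG libraries. The log2 change was 0.84 (SE 0.232, limma adjusted p 0.0378). In this line the median gene itself changed by 0.23 with Dox and 0.21 without, and after median-ratio scaling, which takes that shift out, Mir466p changed by 0.61 (adjusted p 0.140). The call was also lost with edgeR (adjusted p 0.128), DESeq2 (0.0959) and when any of the 4 clones was left out. Dox alone had gone the other way, with Mir466p lower in 4 of 4 clones than in untreated cells by -0.89 (SE 0.232, adjusted p 0.111, 0.778% of all genes called), a change that only DESeq2 called (adjusted p 0.0191).

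Without Dox Mir466p did not move one way. It was at 27.3, 18.1, 11.9 and 15.3 CPM in untreated G4, H1, C3 and H5 and at 20.3, 17.8, 24.4 and 30.2 CPM with dTAG, so that only the clones with the C-terminal tag, C3 and H5, were higher (log2 change 0.37, adjusted p 0.243). It was the only one of the 6 loci called in METTL3 cells, 1 with Dox and 0 without, where 10.5% and 23.3% of 13367 genes were called. For so few loci these counts are near those shares and are not read as a result about them. Without Dox 2 loci had an unadjusted p under 0.05, and edgeR and DESeq2 called 0 with either Dox state. These were 2900060B14Rik, higher by 0.57 in 4 of 4 clones (SE 0.208, adjusted p 0.0615), and Sntg1, higher by 0.39 in 4 of 4 clones (SE 0.176, adjusted p 0.120), or 0.42 and 0.17 after median-ratio scaling.

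None of the other changes in METTL3 cells was called, although some ran the same way in every clone. St18 changed by -0.05 and 0.15 with and without Dox, with 2 of 4 clones higher each time. Rgs20, at 23.9 to 74.9 CPM over the 16 libraries, changed by -0.10 and -0.34, and without Dox it was lower in 4 of 4 clones (adjusted p 0.144). B130034C11Rik changed by 0.33 in 4 of 4 clones with Dox (adjusted p 0.287) and by -0.14 without. Sntg1 changed by 0.14 with Dox, a direction that turned under median-ratio scaling (-0.09).

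**Figure D2:**
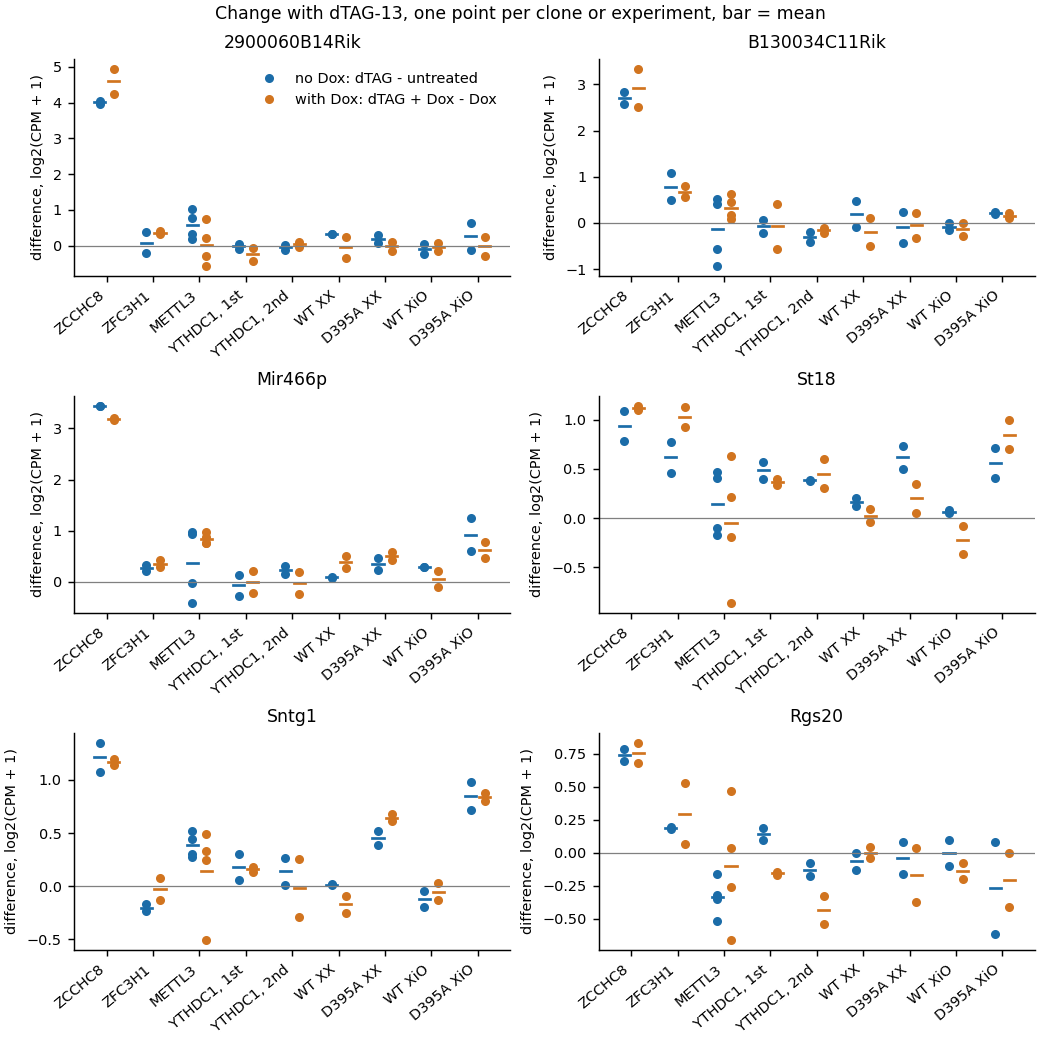
Difference in log2(CPM + 1) between libraries with and without dTAG for each locus, 1 point per clone (degron lines) or experiment (transgene lines), with the mean as a bar, without Dox in blue and with Dox in orange. The mean of the ZCCHC8 clones is over 4 units for 2900060B14Rik and over 3 for Mir466p, higher than in the other lines shown, whereas St18 changes by 1.03 with ZFC3H1 loss and by 1.12 with ZCCHC8 loss (Dox).

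In METTL3 clone H5 with a GFP-METTL3 transgene, dTAG removes the tagged protein and leaves the transgene product. With WT METTL3, limma called 0 of 5 tested loci in the XX and XiO lines with and without Dox, as did edgeR and DESeq2, and 0.0% of all genes were called, with 0 of the 5 at an unadjusted p under 0.05. With D395A it also called 0 of 5, where 3.19% and 6.01% of genes were called in the XX line and 0.0521% and 0.402% in the XiO line. Of these, 1 and 0 had an unadjusted p under 0.05 in the XX line and 2 and 2 in the XiO line. With D395A the median gene itself changed, by 0.06 with Dox and 0.12 without in XX cells and by 0.11 and 0.12 in XiO cells. edgeR called 0, and DESeq2 called Mir466p in the D395A XiO line without Dox.

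Sntg1 was higher with dTAG in both experiments of both D395A lines. In the XX line it was at 8.67 and 9.01 CPM with Dox in the experiments 1 and 2 and at 14.5 and 14.3 CPM with dTAG and Dox, against 10.0 and 15.7 and then 9.35 and 13.1 CPM in the WT XX line. In the D395A XiO line it was at 12.98 and 15.8 CPM with Dox and 24.6 and 28.4 CPM with both, and at 12.5 and 20.1 CPM untreated and 25.8 and 33.7 CPM with dTAG. The log2 changes with and without Dox were 0.65 and 0.46 in the XX line (SE 0.309, limma adjusted p 0.319 and 0.450) and 0.84 and 0.85 in the XiO line (SE 0.228, adjusted p 0.186 and 0.138). With experiment as a block the XiO changes were called (adjusted p 0.0109 and 0.00849), and with only that line's libraries in the fit so were those of the XX line (0.0193 and 0.0441). Mir466p in the D395A XiO line changed by 0.62 and 0.92 (SE 0.202, adjusted p 0.269 and 0.0744), again called with the block (0.0432 and 0.00709).

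St18 in the WT XiO line differed more between experiments than with dTAG. It was at 6.03 to 13.8 CPM over the 4 treatments in experiment 1 and at 23.2 to 48.2 CPM in experiment 2. In the D395A XiO line it was at 24.7 and 49.2 CPM with Dox in the experiments 1 and 2 and at 50.4 and 80.4 CPM with dTAG and Dox, where the difference between the experiments was about as large as that with dTAG. The change was 0.85 with Dox and 0.56 without (SE 0.854, limma adjusted p 0.895 and 0.940), with both experiments higher. In the D395A XX line without Dox St18 was at 38.5 and 29.9 CPM untreated and at 54.9 and 50.5 CPM with dTAG, with no overlap. That change of 0.62 (SE 0.396, adjusted p 0.418) was called only with that line's libraries alone in the fit (adjusted p 0.0364), and with Dox it was 0.20. Rgs20 changed by -0.21 with Dox and -0.27 without in the D395A XiO line, where its level was the highest of the series. With D395A in XX cells it changed by -0.17 and -0.04. B130034C11Rik changed by 0.16 and 0.21 in XiO cells with D395A. With D395A in XX cells it changed by -0.05 and -0.10, and Mir466p by 0.51 and 0.36, none called. With WT METTL3 the changes of the 5 loci ran from -0.20 to 0.39 in the XX line and from -0.22 to 0.29 in the XiO line.

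The level of Rgs20 in untreated cells differed widely between the lines. It was at 190 and 304 CPM in the D395A XiO line and at 97.9 and 112 CPM in the WT XiO line. It was at 31.7 to 59.2 CPM in the METTL3 clones, 24.7 to 38.7 in the XX transgene lines, 18.1 and 18.4 in the ZCCHC8 clones and 14.4 to 15.96 in the YTHDC1 clones. Only the ranges of the METTL3 clones and the XX transgene lines overlap, and the tables were normalized separately. The ZFC3H1 clones stood apart from each other, with 83.6 to 122 CPM over the 4 treatments in 8H and 10.2 to 15.2 in 11A. Averaged over treatments, 8H exceeded 11A by 3.03 on the log2 scale for Rgs20, 1.25 for Sntg1, 1.17 for St18, 0.69 for B130034C11Rik and 0.63 for Mir466p. The median gene of chromosome 1 was higher in 8H by 0.29 (788 genes), the 17 other genes of its first 10 Mb by 0.42, and the median of all 13539 genes by 0.00. This comparison of the clones was chosen after the values of Rgs20 had been seen, and the origin of the offset was not tested. The clone term takes these offsets out of the changes given above.

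The tested genes next to the loci did not move with them as a group. Of 40 neighbours, those under the filter of a mean of 1 CPM were not tested. Among these, Map3k7cl, 49291 bases from B130034C11Rik on the same strand, was higher with dTAG in both clones and Dox states. It was at 0.187 to 0.637 CPM without dTAG and 0.866 to 1.56 CPM with it. Oacyl near Mir466p, at 0.686 to 0.926 and 0.999 to 1.43 CPM, did the same, and none of the rest did. Of 31 neighbours within 500 kb that were tested with ZCCHC8 loss, 7 were higher and 5 lower with Dox (40.4% of all genes called), with a median log2 change of -0.02 against 0.04 for all genes. Without Dox 6 were higher and 4 lower (36.1% of all genes called). The Dox count was 7 without clone Z12H, and that without Dox was 6 without Z4F and 3 without Z12H.

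At the host or divergent partner the change was small or not called. Clasp1, around 2900060B14Rik, fell by 0.17 (SE 0.0519, limma adjusted p 0.0159) with Dox and by 0.18 (adjusted p 0.0143) without. Cct8, which shares the promoter region of B130034C11Rik, changed by -0.06 and 0.05, neither called. Under the Mir466p span, opposite-strand Malt1, a signalling protease gene, fell by 0.18 with Dox (adjusted p 0.029), while the ubiquitin ligase gene Nedd4l and the zinc-finger gene Zfp532 were not called (0.09 and -0.07).

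Of the neighbours farther off, Grik1, a glutamate receptor gene 391858 bases from B130034C11Rik, rose by 1.24 (SE 0.152, adjusted p 7.95e-06) with Dox and by 1.26 without. Around Sntg1, 1700034P13Rik rose by 0.67 and 0.98, the kinase gene Sgk3 by 0.39 and 0.22, and the deubiquitinase gene Vcpip1 by 0.20 and 0.26, all called. Also near Sntg1, Adhfe1 was called only without Dox (0.33). Near St18, Fam150a, which encodes a ligand of the ALK receptor, rose by 0.67 and 0.34, and Pcmtd1 was called only with Dox (0.28). Called in 1 Dox state were also Mrpl15, a mitochondrial ribosomal protein gene near Rgs20 (0.20, Dox), Bach1, a transcription factor gene near B130034C11Rik (-0.20, Dox), and Lman1, a gene for a cargo receptor near Mir466p (-0.23, without Dox). Near 2900060B14Rik, the pluripotency factor gene Tfcp2l1 fell by 0.69 and 0.57, and Gli2, a Hedgehog pathway factor gene, fell by 0.54 and 0.53. With YTHDC1 loss in the first experiment, 4 of 31 neighbours were higher and 2 lower with Dox (15.5% of all genes called). Without Dox 4 were higher and 3 lower (19.0% of all genes called). Vcpip1 changed there by 0.50 and 0.70 with and without Dox, Adhfe1 by 0.48 and 1.14, and Grik1 by 0.55 and 0.46. Tfcp2l1 changed by -0.26 and -0.44, and these changes were called too.

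**Figure D3:**
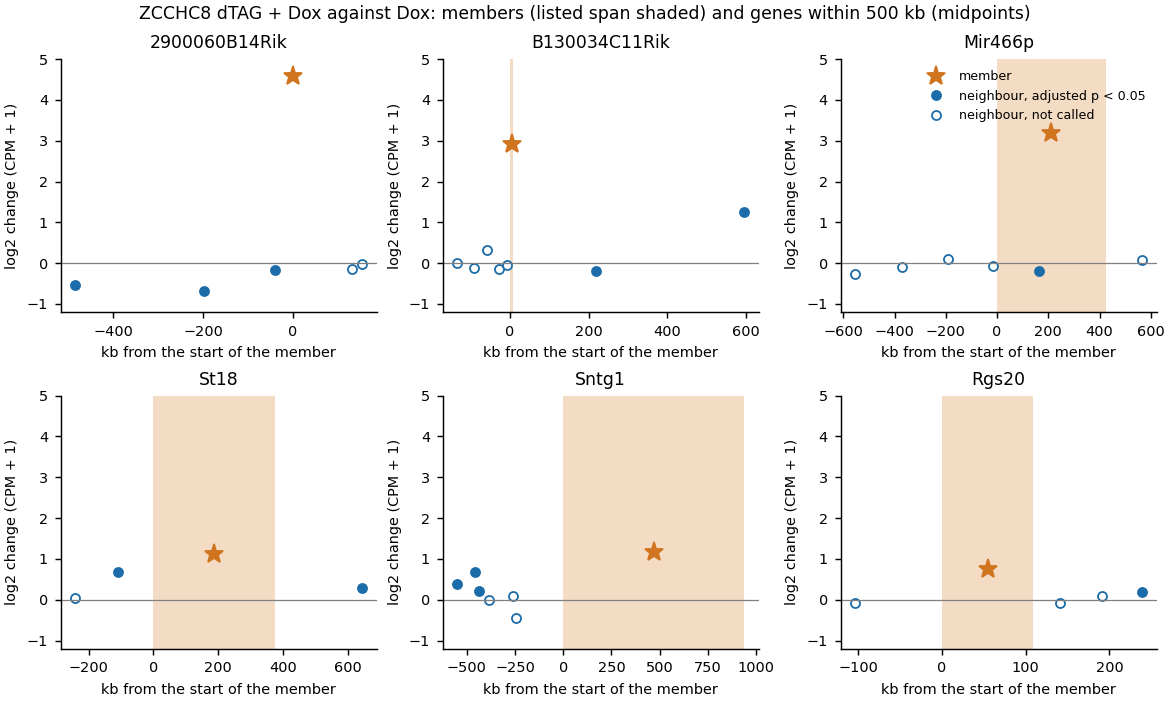
Log2 change with dTAG + Dox against Dox in the ZCCHC8 clones for each locus (star, listed span shaded) and its tested neighbours within 500 kb, drawn at the midpoint of the gene by distance in kb from the locus start. Filled points were called. The neighbours lie between -0.69 and 1.24, each lower than the locus it is near. The loci were chosen for their change with ZCCHC8 loss, so this order is not read as a result.

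Relatives of the coding members were tested as a list. Of 7 (Myt1, Myt1l, Sntb1, Sntb2, Sntg2, Rgs17 and Rgs19), 5 were higher and 0 lower with ZCCHC8 loss and Dox (25.2% of all genes higher), with a median change of 0.36. Without Dox 2 were higher. The largest called changes with Dox were in Myt1, a zinc-finger factor like St18 (0.50), its paralogue Myt1l (0.46), the syntrophin gene Sntg2 (0.43) and the G protein regulator Rgs19 (0.36), all smaller than in the members. The count with Dox was 3 without Z4F, 0 without Z12H and 0 with DESeq2. In METTL3 cells 3 of 6 tested were higher and 0 lower in either Dox state (8.6% and 16.9% of all genes higher). Myt1l was called higher there (0.69 with Dox) and in both YTHDC1 experiments (0.49 and 0.43 with Dox).

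The machinery itself was called lower at a share near that of all genes, and higher less often. Of 23 tested genes of NEXT, PAXT, the cap-binding complex and the exosome, 1 was higher and 5 lower with ZCCHC8 loss in either Dox state. These are 4.35% and 21.7%, against 25.2% and 15.2% of all genes with Dox and 19.9% and 16.2% without. The median change was -0.03 with Dox and -0.055 without, and the lower count is not read as a result about these genes. Exosc6, an exosome ring subunit, rose by 1.03 with Dox and 0.91 without. Srrt, which encodes the ARS2 protein that links the cap to NEXT, fell by 0.50 and 0.47, and Pabpn1, the nuclear poly(A) binding protein of PAXT, fell by 0.50 and 0.35. Exosc7 fell by 0.21 and 0.24. The count without Dox was 3 without Z12H.

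The noncoding members belong to classes that rose widely with ZCCHC8 loss, counted here with the members left out. The classes were set after values had been seen and are counts beside the background. A gene could also enter by its level in the dTAG libraries, which are in the table whose mean had to reach 1 CPM, so that low genes that rose passed more readily and how far the shares with ZCCHC8 loss rest on that filter was not tested. Of the lncRNA genes 497 passed in this table and 407 to 444 in the METTL3, ZFC3H1 and second YTHDC1 tables. Of 121 tested lncRNA genes divergent from a coding gene within 1000 bases, 99 were higher and 0 lower with Dox (81.8% against 25.2% of all genes), with a median log2 change of 0.98, against 2.92 for B130034C11Rik. Of 29 lncRNA genes inside a coding gene on the other strand, as 2900060B14Rik is, 18 were higher and 2 lower (62.1%). Of 30 genes with a Mir symbol, 24 were higher and 0 lower (80%), and their median of 0.73 lies below the 3.19 of Mir466p. Since 55 of the 58 microRNA genes were listed on another chromosome than in RefSeq, these counts do not give the change of microRNAs.

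The coding members too sit in a class with a high share. Of 637 coding genes (593 to 599 in the other 3 tables) of at least 100 kb with at most 0.0916 CPM per kb in untreated YTHDC1 cells, 419 were higher and 14 lower (65.8%), with a median of 0.50, against 22.6% of all coding genes. Of all 497 lncRNA genes that passed, 358 were higher (72.0%), and genes with a Rik symbol 363 of 689 (52.7%). In ZFC3H1 cells the divergent lncRNA genes again had the larger share, with 22 of 117 higher (18.8% against 2.53% of all genes), while 0 of 25 Mir symbols were called. In METTL3 cells with Dox 7 of 26 Mir symbols were higher and 1 lower (26.9% and 3.85% against 8.6% and 1.94% of all genes). Their median log2 change of 0.22 was close to the 0.23 of all genes, and without Dox 19.2% were higher against 16.9%. In the first YTHDC1 experiment 9 of 121 divergent lncRNA genes were higher (7.44% against 9.84%). The long coding genes of low level had 17.7% and 21% higher in the YTHDC1 experiments (9.84% and 8.32% of all genes), 13% in METTL3 cells (8.6%) and 5.51% in ZFC3H1 cells (2.53%). Their lower shares also exceeded those of all genes with YTHDC1 loss (8.32% and 9.92% against 5.69% and 6.34%) and METTL3 loss (3.04% against 1.94%), but not with ZFC3H1 loss (0.501% against 0.620%). Their median log2 changes were 0.05 and 0.08 in the YTHDC1 experiments, and 0.19 in METTL3 cells against 0.23 for all genes.

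**Figure D4:**
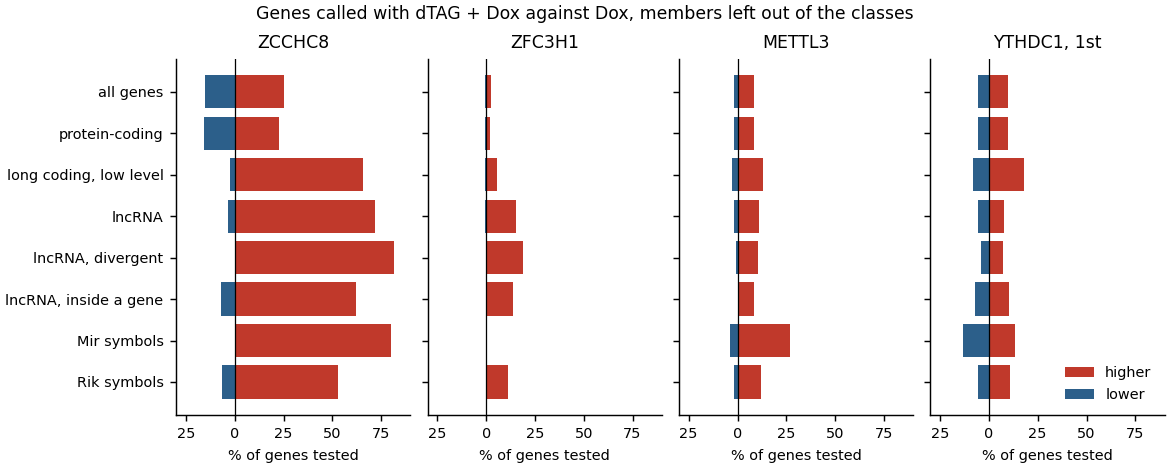
Share of tested genes called higher (right, red) or lower (left, blue) with dTAG + Dox against Dox in 4 degron lines, for all genes and for the classes to which the loci belong, with the 6 loci left out of the classes. Divergent lncRNA genes reach 81.8% higher with ZCCHC8 loss, 18.8% with ZFC3H1 loss and 7.44% in the first YTHDC1 experiment.

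The genes whose pattern over the 48 degron libraries was most like that of a noncoding member were mainly lncRNA genes. For each locus the log2 levels were centred within clone and experiment and Pearson's r was taken with 13728 genes. These libraries share clones and depth, and the ZCCHC8 libraries weigh heavily, so r is a description. For 2900060B14Rik the 3 highest were AV051173 (0.973), 1700096K18Rik (0.948) and 1700003G18Rik (0.923), for B130034C11Rik Gm16023 (0.951), Sp3os (0.949) and Gm16062 (0.927), and for Mir466p C130036L24Rik (0.943), 1700096K18Rik (0.938) and Tomt (0.937). Of these 9 entries only Tomt is coding by RefSeq. For St18 they were Rtn1 (0.875), Otx2os1 (0.872) and Slc25a21 (0.870), for Sntg1 Gtf2f2 (0.940), Cntn5 (0.863) and Zfp85os (0.863), and for Rgs20 Nr3c2 (0.844), Gm7854 (0.823) and C430002E04Rik (0.816).

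Without the ZCCHC8 libraries the likeness changed for most loci. Over the other 40 libraries only C130036L24Rik for Mir466p (0.864), Slc25a21 for St18 (0.834) and Gtf2f2 for Sntg1 (0.851) remained among the 3 highest. For 2900060B14Rik the 3 highest were then Hsd17b10 (0.810), Itm2a (0.760) and Rps4x (0.760), all on the X chromosome, and for Mir466p Dusp1 (0.866) came first. Between members, r of 2900060B14Rik with B130034C11Rik was 0.891 over 48 libraries and 0.355 over 40, and with Rgs20 it was 0.495 and -0.487. Mir466p kept an r of 0.668 with 2900060B14Rik and 0.590 with B130034C11Rik over the 40 libraries, against 0.910 and 0.917 over 48. All other pairs of members lay between -0.487 and 0.380 over the 40. The pattern common to all 6 loci was thus that of the ZCCHC8 libraries on which they were chosen, and part of the likeness of the noncoding loci to Mir466p was kept without them. What that kept likeness follows was not tested.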

How the data were processed

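Chromatin-associated RNA was sequenced after rRNA depletion with a stranded kit. Per the study's methods, reads of rRNA were taken out with bowtie2 by the authors, STAR alignment followed on mm10 masked at Cast and 129S variants, and unique alignments were kept and counted by strand over whole transcripts, introns included, with featureCounts. The deposited tables hold CPM, scaled by the authors to the library total with edgeR, and all values were whole multiples of 1 read (within 0.1 read), which gave the depth of 8.58 to 34.4 M reads. Intervals of such reads would cover counting error only, since reads were counted without molecular identifiers. Another 24 columns matched no sample and were not used. No 2 of the 80 libraries were identical.

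Values were put on the log2(CPM + 1) scale. Where a gene averaged 1 CPM or more over a table, limma 3.58.1 (R 4.3.3, lmFit, eBayes with trend) tested it, two-sided, with Benjamini-Hochberg adjustment over all genes tested and calls at an adjusted p under 0.05. The degron fits held a clone term, from the clone that the labels name, so each clone was compared with itself. Deviations of libraries of 1 clone correlated at -0.18 to 0.90. edgeR 4.0.16 (quasi-likelihood) and DESeq2 1.42.0 on the recovered reads were alternatives, beside another pseudocount (0.1), filters, median-ratio scaling, blocks and leaving out clones. The ZCCHC8 and first YTHDC1 libraries share a table and a fit. Scripts were tested on simulated data. Symbols matched RefSeq for 93.8% of genes.

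The 6 loci are named throughout, except that the WT lines are summarised by a range. Among neighbours, those called are named (at most 4 per locus and Dox state) with every overlapping gene, and in each list at most 4 called genes. The loci, lists and tests were chosen with earlier results of these data known. One gene of the list of relatives is not reported here. Tables of allelic ratios were not used here.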

Additional observations from a re-analysis of the deposited data

Results flagged for a closer look

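In all, 4 differences between a D395A line and the WT line with the same X chromosomes stood out because both experiments of one line moved one way and both of the other moved the opposite way. None of these differences was tested, and 2 experiments against 2 can give such a pattern by chance. For Sntg1 with Dox, the change with dTAG in the D395A XX line exceeded that in the WT XX line by 0.82 on the log2 scale. Without Dox, Sntg1 in the D395A XiO line exceeded the WT XiO line by 0.97. For St18 with Dox, the D395A XiO line exceeded the WT XiO line by 1.07, with levels that differed between the experiments. For B130034C11Rik without Dox, the D395A XiO line exceeded the WT XiO line by 0.29. Over the 24 groups of 4 METTL3 libraries checked, 0 held a library that lay apart from the others.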

How the results depend on the processing

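Over the alternatives, 199 of 247 counts stayed within 1.5 times and 671 of 750 log2 changes of a locus kept their direction and call. The number of loci called in METTL3 cells with Dox went from 1 to 0 under DESeq2, edgeR, median-ratio scaling, testing of all genes above 0, no replicate block, and each left-out clone (0 to 0). In the first YTHDC1 experiment the count with Dox went from 1 to 0 without the replicate block and 0 to 0 without a clone, and that without Dox to 0 to 1 without a clone. In the second it went from 2 to 0 with Dox and from 1 to 0 without Dox when the block was dropped, and from 1 to 0 without Dox over all genes above 0. In ZFC3H1 cells it went from 1 to 0 in both Dox states without the block, and without Dox to 0 over all genes above 0 and to 2 under median-ratio scaling. Leaving out a clone of the second YTHDC1 experiment or of ZFC3H1 left no residual degrees of freedom and gave values without a test. In the D395A XX line the counts of 0 became 1 with Dox and 2 without when only its libraries were fitted. In the D395A XiO line they became 2 and 2 with experiment as replicate block, and 1 without Dox with DESeq2. The pairing by experiment (r 0.42 to 0.92) comes from the replicate number of the labels.

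Of ZCCHC8 neighbours, 12 called with Dox became 6 without the replicate block, 3 within 100 kb, and 7 to 8 without a clone, and 10 called without Dox became 6 with DESeq2, 3 without the block, 2 within 100 kb and 3 to 6 without a clone. Of related genes, 5 called with Dox became 0 with DESeq2, 3 with edgeR, 3 with median-ratio scaling, 2 without the block and 0 to 3 without a clone, and 2 called without Dox became 1 with DESeq2, edgeR or all genes above 0, 0 without the block and 0 to 0 without a clone. Of NEXT, PAXT and exosome genes, 6 called became 3 without the block in either Dox state, and 3 without Z12H without Dox.

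Changes near 0 turned sign. In METTL3 cells with Dox 2900060B14Rik (0.03) was at -0.22 with DESeq2, -0.17 with edgeR, -0.11 with median-ratio scaling and -0.062 with a pseudocount of 0.1. Sntg1 (0.14) was at -0.077, -0.057 and -0.091, and St18 without Dox (0.15) at -0.076, -0.034 and -0.072, with DESeq2, edgeR and median-ratio scaling. In the first YTHDC1 experiment with Dox Mir466p (0.01) was at -0.017, -0.013 and -0.014. Without a clone or experiment, the METTL3 changes ran from -0.21 to 0.23 for 2900060B14Rik, -0.28 to 0.22 for St18 and -0.30 to 0.083 for Rgs20 with Dox, and -0.36 to 0.12 for B130034C11Rik without. Those of the first YTHDC1 experiment ran from -0.56 to 0.41 (B130034C11Rik) and -0.21 to 0.22 (Mir466p) with Dox, and from -0.087 to 0.053 (2900060B14Rik), -0.21 to 0.073 (B130034C11Rik) and -0.27 to 0.13 (Mir466p) without. In the D395A XX line they ran from -0.32 to 0.22 and -0.43 to 0.23 (B130034C11Rik) and -0.38 to 0.035 and -0.16 to 0.079 (Rgs20), and in the D395A XiO line from -0.62 to 0.082 (Rgs20, without Dox). The cause of these shifts was not tested. At 2 to 23 reads in YTHDC1 libraries, depth limits 2900060B14Rik most.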

Other observations

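The zero of Alpk2, which lies inside the listed span of Mir466p on the same strand, is common to genes in that position. Of 388 genes wholly inside another gene of the same strand, 387 were at 0 in all 80 libraries (99.7%), against 946 of 22168 other genes (4.27%). Sox2, a defining ES cell gene, is 1 of them, so a listed value of 0 for such a gene does not give its RNA level.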
